A study of Mus musculus with 6 samples.

Results

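B2m encodes beta-2-microglobulin, the small subunit of MHC class I molecules, and is described here in fetal and adult mouse liver. It was 1 of 15 genes with a RefSeq messenger RNA accession on an array of 60915 probes, the rest of which carry no gene name in the files. Its probe was found by that accession and printed on 20 spots of each array. The gene was chosen by its log2 signal difference between adult and prenatal arrays, so the values of that contrast below are a description and carry no test.

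Beta-2-microglobulin has no membrane anchor. It binds the class I heavy chain, which largely depends on this complex to fold and to reach the cell surface. The complex shows peptides to cytotoxic T cells. It also pairs with class I relatives, among them the neonatal Fc receptor, which recycles immunoglobulin G and albumin, and Hfe, which takes part in iron sensing. Nearly all nucleated cells express it, interferons raise it, and it is a common reference gene for quantitative PCR. Before birth the liver is a site of blood formation, and in the adult hepatocytes make up most of its mass.

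Total liver RNA of C57BL/6 mice, bought from a supplier, was labelled with Cy3 and hybridised to arrays of 1 colour. Of 6 arrays, 3 were prenatal, at embryonic day 18 (a description field names a marginally later stage, and the tissue field reads embryo), and 3 were adult, at 2 months. The series describes RNA of 3 different animals, and no treatment, transgene or genotype other than the strain is named. No hepatocyte marker (0 of 7) has a named probe, so the liver identity could not be checked, and of 40 cell type markers Tfrc alone was readable.

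The window upstream of B2m is shown as annotation of the gene whose level differed. The arrays measured no promoter activity. RefSeq places it at chr2:122147437-122147686 (GRCm38.p6, plus strand), 250 bases that end just before the annotated start. Capitals mark 3 motifs, chosen with this sequence in view and searched on both strands. They are, in order, the core of the interferon-stimulated response element (GAAA, any 2 bases, GAAA), a form of the NF-kappaB site (GGGAA, any 3 bases, CCC) and a TATA box (TATATAA), and they do not overlap here.
B2m: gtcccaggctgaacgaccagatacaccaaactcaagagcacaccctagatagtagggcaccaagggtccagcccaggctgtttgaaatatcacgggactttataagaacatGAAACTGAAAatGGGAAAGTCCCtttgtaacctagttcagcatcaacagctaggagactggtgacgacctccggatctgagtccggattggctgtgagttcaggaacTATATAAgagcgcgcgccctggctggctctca
Each matched once, on the plus strand, with first bases at -139, -127 and -32 from the start. Of 32851 promoter windows of this length in the RefSeq table, 2.98% held the first motif, 1.42% the second and 3.04% the third. A match describes letters and not a bound factor.

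Of the 61500 non-control spots on each array, 45.1% to 60.5% were flagged well above background, and no spot was saturated. Prenatal replicate 1 stood apart from its group: across tested probes it correlated with the other prenatal arrays at 0.893 and 0.915, whereas those correlated with each other at 0.983 and the adult arrays among themselves at 0.967 or more. The files show 2 scans, and scan 1 held 2 arrays of each group and scan 2 held prenatal replicate 1 and adult replicate 3. Precision is limited by having 3 arrays per group, and spots of 1 array are not replicates.

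B2m was bright everywhere and brighter in adult liver. The median raw signal of its spots was 6568 on prenatal replicate 1, 16724 on replicate 2 and 11632 on replicate 3. In the adult it was 78414, 61650 and 54172 on replicates 1, 2 and 3. The lowest adult spot, at 52152, exceeded the highest prenatal spot, at 17282, so the groups did not overlap even before scaling. All 120 spots were well above background, and the brightest, at 81698, lay far below the saturation value of 778195 read for that array.

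Values were then put on a common scale as log2 of the signal minus log2 of the 75th percentile of the array, which makes 0 the brightness of a spot at that percentile. On this scale B2m stood at 6.48, 6.78 and 7.13 on prenatal replicates 1, 2 and 3, or 89.5, 110.2 and 139.8 times the percentile. It stood at 9.42, 9.79 and 9.44 on adult replicates 1, 2 and 3, or 686.5, 886.4 and 692.2 times the percentile. The adult arrays were all higher than the prenatal arrays, and prenatal replicate 1 was the lowest. The prenatal mean was 6.80 ± 0.32 (SD, n = 3) and the adult mean 9.55 ± 0.21 (SD, n = 3). The difference, adult minus prenatal, was 2.75 on the log2 scale with a limma standard error of 0.28, a 6.74-fold higher level in the adult. In liver RNA, more cells that carry the transcript and more transcript per cell cannot be told apart.

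**Figure D1:**
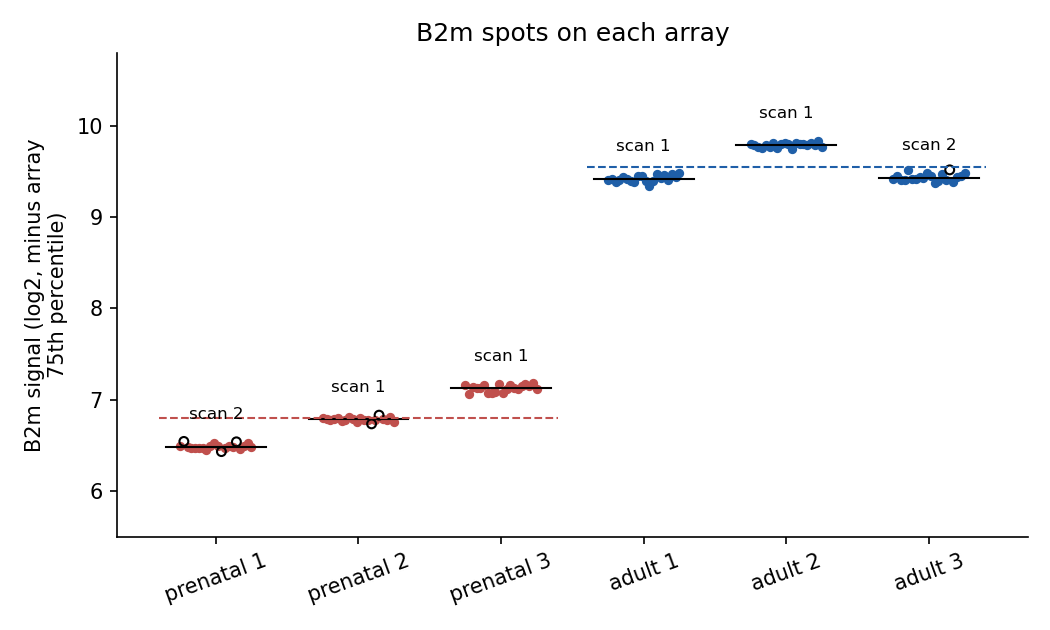
Normalised B2m signal (log2, minus the 75th percentile of the array) of each of the 20 spots on the 6 arrays. Filled points are spots that entered the mean, open points the spots with an outlier flag, black lines array means and dashed lines group means; prenatal means lie between 6.48 and 7.13 and adult means between 9.42 and 9.79.

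In ascending order the arrays were prenatal replicates 1, 2 and 3 and adult replicates 1, 3 and 2. The steps between neighbours were 0.30, 0.34, 2.30, 0.01 and 0.36 on the log2 scale. The step of 2.30 separated the groups. Adult replicates 1 and 3 differed by 0.01, less than the SD of 0.04 between the spots of either array. The SDs of 0.32 among prenatal and 0.21 among adult arrays are made from these same steps. Setting the steps against them therefore says nothing about noise.

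The groups did not overlap, so each of the 9 pairings of an adult with a prenatal array gave a higher adult value, and the pairings show the range of sizes. The smallest difference, 2.30 or 4.91-fold, was between adult replicate 1 and prenatal replicate 3, and the largest, 3.31 or 9.91-fold, between adult replicate 2 and prenatal replicate 1. Within scan 1 the difference was 2.65, and within scan 2, with 1 array of each group, it was 2.95. Without prenatal replicate 1 it was 2.59. Leaving out any other array gave 2.63 to 2.92.

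The spots of B2m are a check on printing and on position within the array. All carry the same probe, so their agreement cannot show which transcripts that probe binds. The spots lay between rows 43 and 356 and columns 12 and 163 of the array. Their SD on the log2 scale was 0.02, 0.02 and 0.04 on prenatal replicates 1, 2 and 3, and 0.04, 0.02 and 0.04 on adult replicates 1, 2 and 3. This is far smaller than the spread between arrays of a group. Read from any single print position that carried no outlier flag on any array (16 of 20), the difference between the groups was between 2.72 and 2.80. The lowest adult value exceeded the highest prenatal value by at least 2.22 at each of these positions. Outlier flags fell on 6 of the 120 spots, and keeping them moved no array by more than 0.0042.

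B2m also stood higher in adult liver in the order of probes by brightness, which needs no scaling. This order says where the probe lay in the signals of its own array, not how abundant its transcript was beside others. From the top, B2m held place 1690, 1289 and 1110 on prenatal replicates 1, 2 and 3. It held place 307, 274 and 293 on adult replicates 1, 2 and 3. The share of probes brighter than B2m was thus 2.24% ± 0.49 (SD, n = 3) on prenatal and 0.477% ± 0.027 (SD, n = 3) on adult arrays. The 3 adult places lay close together and the prenatal places were spread more widely. Places are closer together near the top for a like step in signal. Adult replicates 1 and 2 stood at 9.42 and 9.79 on the log2 scale and at places 307 and 274. Prenatal replicates 1 and 2 stood at 6.48 and 6.78 and at places 1690 and 1289. The narrower spread of adult places thus does not show that adult arrays varied less. Over all probes the mean percentile of B2m was higher on adult arrays by 1.76 points, and by 1.49 points without prenatal replicate 1. Among the 32336 tested probes, those well above background on at least 3 arrays, B2m lay at percentile 95.8 ± 0.92 (SD, n = 3) on prenatal and 99.1 ± 0.051 (SD, n = 3) on adult arrays.

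Among all tested probes the B2m difference lay toward the adult end. The median difference over all tested probes was 0.06, and 1398 of them, or 4.32%, had a difference at least as far toward the adult as B2m. In either direction 2927 probes, or 9.05%, differed by at least as much. By limma with Benjamini-Hochberg adjustment at 0.05, 8987 of 32336 probes (27.8%) were called. Of all probes tested, 5121 (15.8%) were called with the adult level above the prenatal and 3866 (12%) with the prenatal above the adult. The total was 11561 without prenatal replicate 1. It fell to 5697, 5313 and 5387 without adult replicates 1, 2 and 3, to 4505 with the replicate number as a block, and to 5195 with no scaling, of which 2052 were above in the adult and 3143 below. Leaving out the scaling moved the median of all probes to -0.13. The values of 47.6% of probes did not overlap between the groups, as for B2m, with 27.1% of probes higher in the adult and 20.5% lower. Among 741 probes with a mean signal within a log2 of 1 of B2m, 20.8% were called, the median difference was 0.03, and 26 (3.51%) differed toward the adult by at least as much as B2m.

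**Figure D2:**
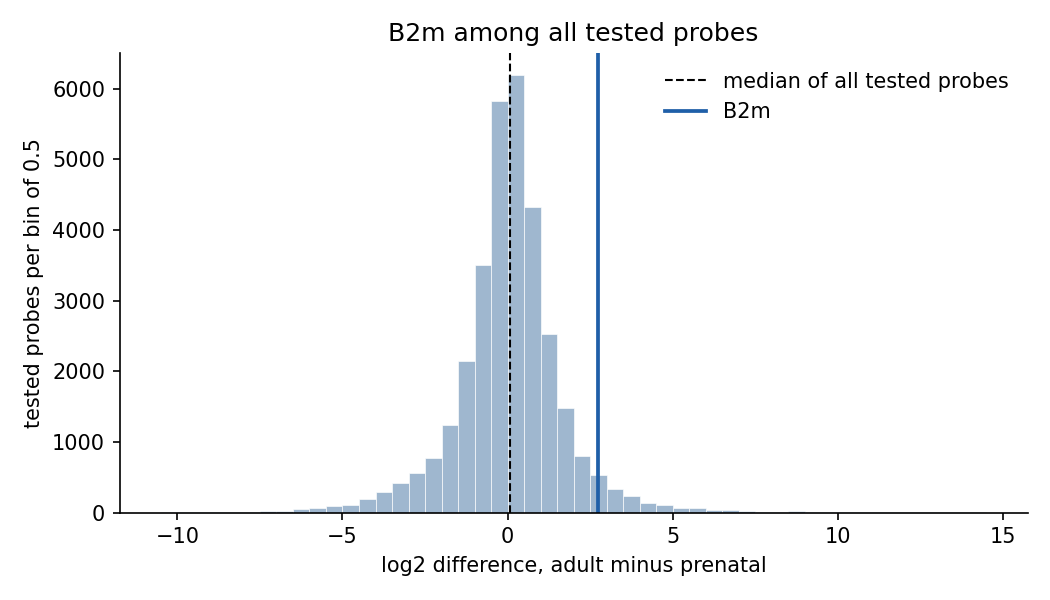
Number of tested probes (vertical axis) in bins of 0.5 of the log2 difference, adult minus prenatal (horizontal axis), under the 75th percentile scaling. The dashed line is the median of all tested probes, 0.06, and the solid line is B2m, 2.75, with 4.32% of probes at or beyond it on the adult side.

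The other genes of the class I pathway could not be read by name. The list held 13 heavy chain genes, 6 genes of class I relatives, 10 genes of peptide supply, 3 chaperone genes and 8 regulator genes. None of them (0 of 40) had a named probe. B2m was therefore the only readable member of its pathway, and whether the heavy chains differ in these samples was not analysed here. The readable genes were the 14 other named ones, most of them in wide use as reference genes.

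Of those 14, Tfrc and Tuba1b passed the test with more signal before birth, none passed it with more in the adult, and 12 did not pass the threshold, against 27.8% of all probes called. The median of the 14 differences was -0.12, beside 0.06 for all tested probes. Tfrc encodes the transferrin receptor, through which erythroid precursors take up iron. It stood at 8.23, 8.21 and 7.97 on prenatal replicates 1, 2 and 3 and at 4.75, 4.51 and 4.28 on their adult counterparts, without overlap and opposite to B2m (log2 difference -3.62, limma adjusted p = 0.000182). Tuba1b, an alpha tubulin, had 10.70, 9.97 and 10.14 before birth and 7.56, 7.63 and 7.24 in the adult (log2 difference -2.79, limma adjusted p = 0.000908). Without prenatal replicate 1 these differences were -3.58 for Tfrc and -2.58 for Tuba1b. Tfrc was the only readable erythroid marker (1 of 8), and the part of erythroid cells in the B2m difference was not tested.

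The genes whose profile over the 6 arrays came nearest to B2m were compared by the root-mean-square difference between profiles, each centred on its own mean. Among the named genes the nearest were Ldhal6b at 1.01, a relative of lactate dehydrogenase, Hsp90ab1 at 1.07, a cytosolic heat shock protein, and Gk at 1.21, glycerol kinase. The farthest were Tfrc at 3.20, Tuba1b at 2.80 and Hprt at 1.67, a purine salvage enzyme. The B2m profile is mostly the group difference by which the gene was chosen. These distances thus largely restate how each gene differed between the groups, and are a description. Without prenatal replicate 1 Hsp90ab1 was nearest, at 0.92, ahead of Ldhal6b. Among 32235 unnamed tested probes the nearest were ASMM10P029385 at 0.083 and ASMM10P012710 at 0.086, and 197 probes lay under 0.3. The first of these stood at -3.30, -3.24 and -2.73 before birth and at -0.39, -0.02 and -0.37 in the adult. The second stood at 2.45, 2.59 and 2.90 before birth and at 5.20, 5.71 and 5.41 in the adult. The files do not pair these probes with genes.

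As a candidate reference gene, B2m had a far smaller spread within an age than across ages. Its spread over all arrays, and its places on measures over all arrays, follow mostly from the difference by which it was chosen. The SD within groups was 0.27 for B2m, and 7 of the other 14 genes had a smaller value, from 0.11 for Gk. Over all 6 arrays the SD of B2m was 1.53, and of the named genes Tuba1b at 1.55 and Tfrc at 1.99 were higher. On all 6 arrays the SD within groups and the SD over the arrays were 0.36 and 0.33 for Gapdh, a glycolytic enzyme, 0.57 and 0.54 for the cytoplasmic actin Actb, and 0.27 and 0.24 for Ppia, cyclophilin A. Without prenatal replicate 1 the SD of B2m was 0.23 within groups and 1.43 over the arrays, and Tuba1b was then lower over the arrays, at 1.42. The mean SD of the log ratios of a gene to each of the other 14, the measure on which geNorm ranks reference genes, was 1.78 for B2m. It was lowest for Ppia at 0.66, followed by Nono at 0.68, an RNA-binding nuclear protein, and Gapdh at 0.71. B2m took place 14 of 15 on this measure, before Tfrc at 2.04. Within groups the same measure was 0.43 for B2m, which was place 9, between 0.32 for Ppia and 0.61 for Tbp, the TATA-binding protein. Without prenatal replicate 1 it was 0.40 for B2m, which was then place 14, while the measure over all arrays was 1.75 and kept place 14.

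**Figure D3:**
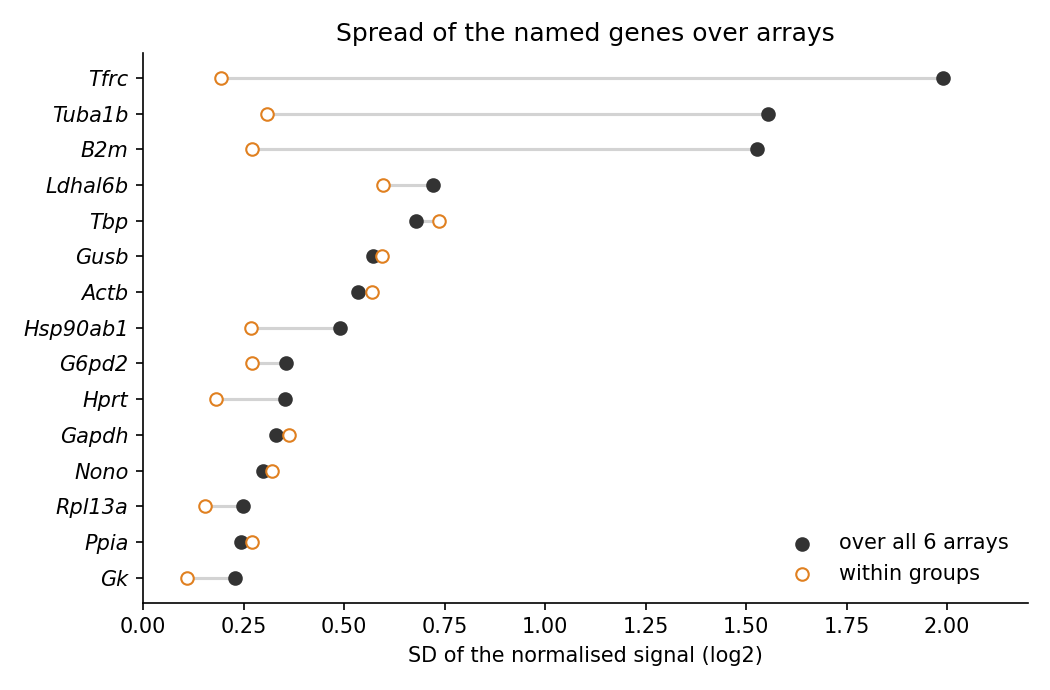
SD of the normalised signal (log2, horizontal axis) of each of the 15 named genes, over all 6 arrays (filled) and within groups (open, the root mean of the variances of both groups). For B2m the values are 1.53 and 0.27, whereas for most other genes both lie close together.

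Dividing by B2m in place of the 75th percentile subtracts its difference from that of every other probe. The median over all tested probes moved from 0.06 to -2.69, and 95.7% of probes had a negative difference, that is, a lower value in the adult. With B2m as reference 29356 of 32335 probes (90.8%) were called, 608 (1.88%) above and 28748 (88.9%) below their prenatal level in the adult. Without prenatal replicate 1 the total was 30106. These counts follow by arithmetic from the B2m difference and are no finding about those probes. Of the 8986 other probes called under the 75th percentile scaling, 4474 kept their call and direction. The remaining calls had all been higher in the adult: 2443 turned to higher in prenatal liver and 2069 were lost. A further 22439 probes were newly called, each of them higher in prenatal liver. Within groups the median SD of a probe was 0.453 under the 75th percentile scaling and 0.508 with B2m as reference.

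All 14 other named genes had a negative difference with B2m as reference, and none of their groups overlapped, as held for 90.7% of all probes (88.7% lower and 2.04% higher in the adult). Under the 75th percentile scaling 7 of them were above 0 and the groups of 8 did not overlap, where 47.6% of all probes did not. Ppia minus B2m was 2.80, 3.09 and 2.57 before birth and 0.49, -0.14 and 0.01 in the adult. Its difference was thus -2.70 beside 0.05 under the 75th percentile scaling. Gapdh minus B2m was 1.04, 1.54 and 1.14 before birth and -1.20, -1.45 and -1.59 in the adult, a difference of -2.65 beside 0.10. Hprt minus B2m was -0.30, -0.45 and -0.59 before birth and -3.50, -3.96 and -3.86 in the adult, a difference of -3.32 beside -0.57. Each of these genes was thus lower beside B2m on every adult array than on any prenatal array. Tfrc, already higher before birth, had a difference of -6.37 beside B2m, or 82.8-fold, against 12.3-fold under the 75th percentile scaling.

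**Figure D4:**
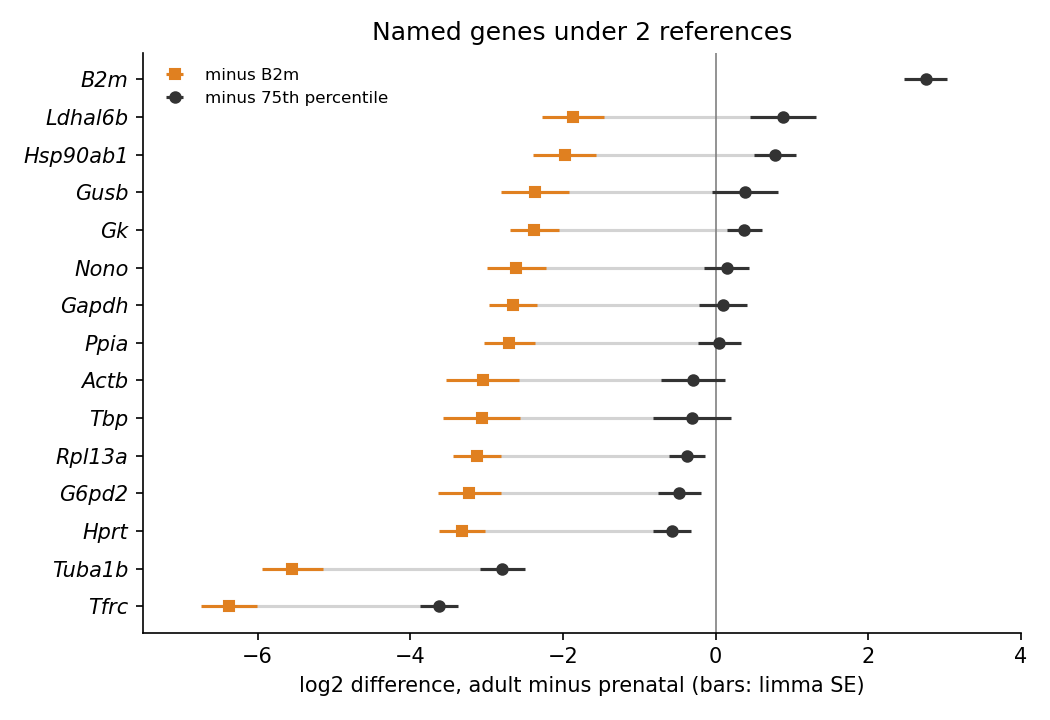
Log2 difference, adult minus prenatal (horizontal axis), of the 15 named genes with the array's 75th percentile subtracted (circles) and with B2m subtracted (squares); bars are limma standard errors. Every square lies 2.75 to the left of its circle, so the 7 other genes with circles above 0 have squares below it.

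The B2m difference itself depended on which gene it was set against. Set against Gapdh it was 2.65, against Ppia 2.70 and against Nono 2.61, all close to the 2.75 of the 75th percentile scaling. Set against Actb it was 3.05, against Rpl13a, a ribosomal protein, 3.13, and against Hprt 3.32. The smallest values were 1.86 against Ldhal6b and 1.97 against Hsp90ab1, and the largest 5.54 against Tuba1b and 6.37 against Tfrc. Ldhal6b was dim, below the 75th percentile on every array. Without prenatal replicate 1 the difference was 2.18 against Ldhal6b and 1.72 against Hsp90ab1. B2m was higher in the adult against each of the 14, and against the mean of all 14 the difference was 3.16.

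As sole references, the other genes gave from 4135 calls for Tbp to 12273 for Hprt when Tfrc and Tuba1b are set aside, and none of those 12 turned the direction of a called probe. Tfrc and Tuba1b gave 30317 and 28762 calls, of which 30017 and 28247 were higher in adult liver, the opposite of B2m. The mean of all 15 genes, which holds B2m together with these, added 0.20 to every difference and gave 9091 calls, 2803 of them higher in prenatal liver. The mean of the 14 without B2m added 0.41 and gave 10291 calls, 2356 of them higher in prenatal liver.

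**Figure D5:**
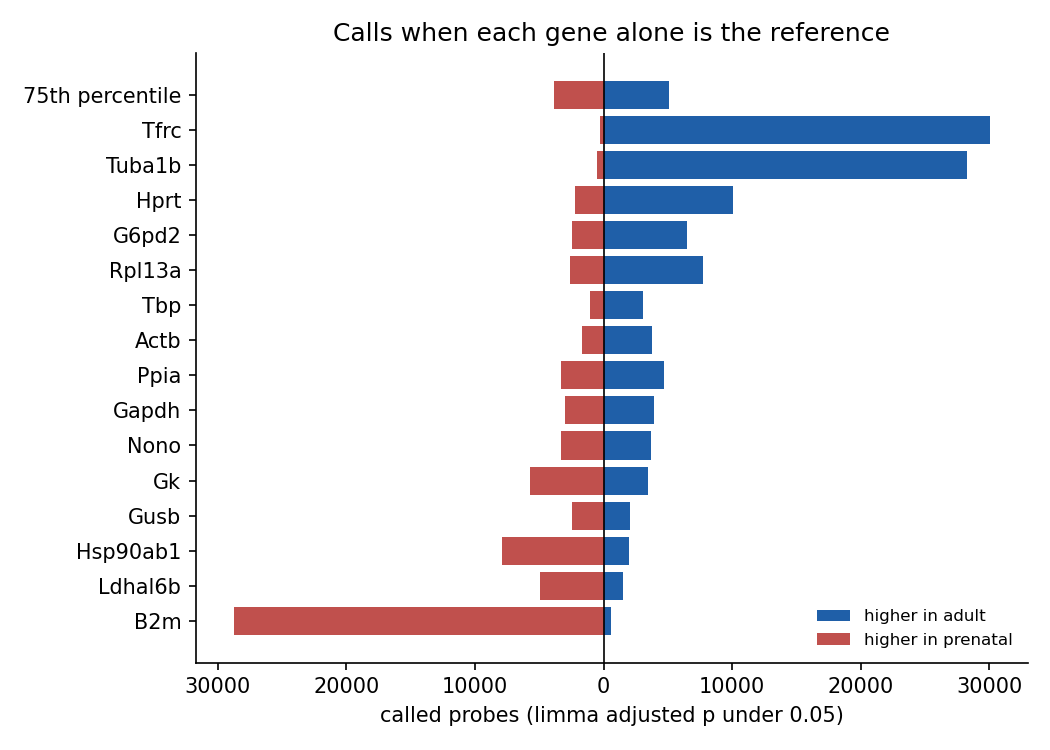
Number of probes called by limma at an adjusted p under 0.05 (horizontal axis, higher in adult to the right and higher in prenatal to the left) when each named gene alone is the reference, and for the 75th percentile scaling. B2m gives 28748 calls to the left and 608 to the right, and Tfrc and Tuba1b give the reverse picture.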

How the data were processed

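Per the submitters' processing notes, the arrays were read with Agilent Feature Extraction 11.0.1.1. The authors deposited its background-subtracted spot intensity, with no scaling between arrays. The log2 value table that the authors deposited does not hold the B2m probe and was not used. Groups came from the sample titles. The B2m probe was found by its RefSeq accession, as were the other named probes (15 of 15 matched in the GRCm38.p6 table). Outlier-flagged spots were dropped, log2 signals averaged over spots, and the array's 75th percentile over non-control spots subtracted. Probes well above background on at least 3 arrays entered a limma fit (version 3.58.1, R 4.3.3). The test was two-sided, with Benjamini-Hochberg adjustment over all tested probes at 0.05. The fit was also run on simulated independent values, as a check of the code and not of these calls. Named are B2m, the genes with an accession, the 3 nearest and 3 farthest of these in profile, and the 2 nearest unnamed probes. The gene, lists and alternatives were chosen with earlier results of these data known. P-values set a group difference against the spread between these samples within groups, moderated over probes by limma. Alternatives were the background correction, scaling, filter, handling of spots, scan, replicate block, left-out arrays and other reference genes.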

Additional observations from a re-analysis of the deposited data

How the results depend on the processing

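The B2m difference lay between 2.51 and 2.95 in the 20 alternatives that kept an array-wide or no scaling, within the within-group SD of 0.27 of its main value. It also stayed within that SD against Gapdh (2.65), Nono (2.61), Ppia (2.70) and the mean of all 15 genes (2.95). Set against the other single genes it moved further, to 3.05 (Actb), 3.22 (G6pd2), 2.38 (Gk), 2.36 (Gusb), 3.32 (Hprt), 1.97 (Hsp90ab1), 1.86 (Ldhal6b), 3.13 (Rpl13a), 3.06 (Tbp), 6.37 (Tfrc) and 5.54 (Tuba1b). Against the mean of 14 genes it moved to 3.16. Within scan 2 the gain in percentile was 2.29, against 1.76 over all arrays, and the SD over arrays 2.09; that scan holds 2 arrays. Calls under the 75th percentile scaling numbered 5195 with no scaling, 5957 on probes above background on all 6 arrays (fewer probes tested) and 4505 with a replicate block. Same-numbered arrays had deviations from their group means correlated at -0.525, -0.349 and -0.313. With so few arrays these values cannot settle whether the numbers mark a pairing. The block left the B2m difference at 2.75. With B2m as reference, 56924 probes were called without a filter on dim probes (more probes tested). Other references gave 5397 (Actb), 8908 (G6pd2), 6937 (Gapdh), 9206 (Gk), 4561 (Gusb), 12273 (Hprt), 9943 (Hsp90ab1), 6401 (Ldhal6b), 6976 (Nono), 8032 (Ppia), 10349 (Rpl13a) and 4135 (Tbp), and 9091 and 10291 for the means of 15 and 14 genes. Leaving out each array gave 2.59 to 2.92 for the B2m difference, 1.49 to 1.97 for its gain in percentile, 1.43 to 1.61 for its SD over arrays, 5313 to 11561 calls under the 75th percentile scaling, 27769 to 30106 with B2m as reference, and 14 of 14 named genes lower in the adult beside B2m. All 266 refits of single named genes with B2m as reference kept direction and call, largely because the B2m difference is built into each. Normexp used the median spot signal. Causes of moved counts were not tested.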
